A study of Mus musculus with 6 samples.

Results

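The 43 genes described here carry the adrenergic signal of the fat cell from the receptor to the nucleus. They are adrenergic receptors, G proteins, adenylyl cyclases, subunits of protein kinase A (PKA), phosphodiesterases, A-kinase anchoring proteins, the CREB transcription factor with its CRTC co-activators, and proteins that switch the receptors off. They were taken from a list of gene symbols given for this work, and all 43 were found among the 16627 genes of the count table and passed the expression filter. The series measured RNA in inguinal white adipose tissue (iWAT) to examine Celf1 in beiging, the appearance of heat-producing adipocytes in white fat. It holds 3 libraries in which Celf1 was knocked out in adipocytes (Celf1 AKO) and 3 from littermate controls whose titles read Flox (Flox control), each numbered 1 to 3. All 6 come from mice kept at 4 °C for 6 hours, so the cold is shared and no library from warmth enters any comparison. The Cre line is not named, and the other cells of the tissue keep their Celf1. Whether each library came from its own mouse is not spelled out, and the p-values then measure only the spread among these 6, which may be technical. Values of the libraries are given in the order of replicates 1, 2 and 3 throughout.

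In the cold, sympathetic nerves release noradrenaline in fat. Beta adrenergic receptors on adipocytes act through the stimulatory G protein on adenylyl cyclases, which make cAMP, and cAMP releases the catalytic subunits of PKA from the regulatory subunits. PKA phosphorylates the proteins of lipolysis and the factor CREB, while phosphodiesterases break cAMP down and anchoring proteins hold PKA at particular places in the cell. Alpha 1 receptors signal through Gq to calcium instead, and alpha 2 receptors lower cAMP through the inhibitory G protein. Celf1 is an RNA-binding protein that recognises GU-rich stretches and acts on the splicing and decay of mRNA.

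Celf1 itself was lower in all 3 knockout libraries, at 52.5, 49.8 and 63.0 CPM (each library's counts scaled to a common total with the TMM factors of edgeR), against 125.5, 114 and 144 CPM in the control libraries. Its log2 fold change, knockout over control, was -1.21 (SE 0.14), and edgeR's quasi-likelihood test with Benjamini-Hochberg adjustment over all 16366 genes tested gave an adjusted p of 0.122, with 0.0174 when Celf1 AKO replicate 3 was left out and a range of 1.21e-09 to 0.697 over 18 alternatives. Libraries held 54835348 to 64979443 counts, so a gene at 1 CPM rested on 54.95 to 67.75 counts. Celf1 AKO replicate 3 stood apart from its group: across genes, its log2 CPM had correlations of 0.975 to 0.980 to the control libraries but of 0.969 and 0.967 to Celf1 AKO replicates 1 and 2. The 8 adipocyte markers, led by Car3 and Fabp4, summed to 54141 to 64314 CPM in the knockout and 57272 to 65641 CPM in the control libraries, with a median log2 fold change of -0.05. The 6 beige markers, Ucp1 and Dio2 among them, were all lower by the fitted fold change, at summed levels of 112 to 247 against 791 to 890.4 CPM. Endothelial markers were higher in 8 of 9, at 1024 to 1193 against 589 to 869 CPM, and Schwann cell markers in 7 of 7, at 265 to 496 against 181 to 212 CPM, with none of the markers of these 4 lists at 0 in any library. In whole tissue, more or fewer cells of a type and more or less RNA per cell cannot be told apart.

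No member passed the edgeR test at an adjusted p of 0.05 in either direction, where 0.0122% of all tested genes were called higher and 0.0% lower. The fold changes lay on both sides of 0, with 21 positive, 22 negative and a median of -0.01 on the log2 scale, beside -0.02 for all tested genes. In 21 of the 43 the log2 fold change was within 0.25 of 0. At an unadjusted edgeR p under 0.05, 6 members were higher and 7 lower, where the same cutoff took 6.75% and 6.17% of all tested genes, or roughly 3 of 43 in each direction. In 6 members all 3 knockout libraries lay above all 3 controls in CPM (Akap12, Pde4b, Pde3a, Akap13, Crtc2 and Akap2), and in 7 they lay below (Adra1a, Adrb1, Adcy3, Adcy6, Prkar2b, Akap1 and Akap10). Over all tested genes 7.81% did not overlap with the knockout higher and 9.51% with the knockout lower. In the authors' FPKM, counts divided by gene length and depth, the same 6 were separate on the higher side, and on the lower side the same genes without Akap1 were.

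**Figure D1:**
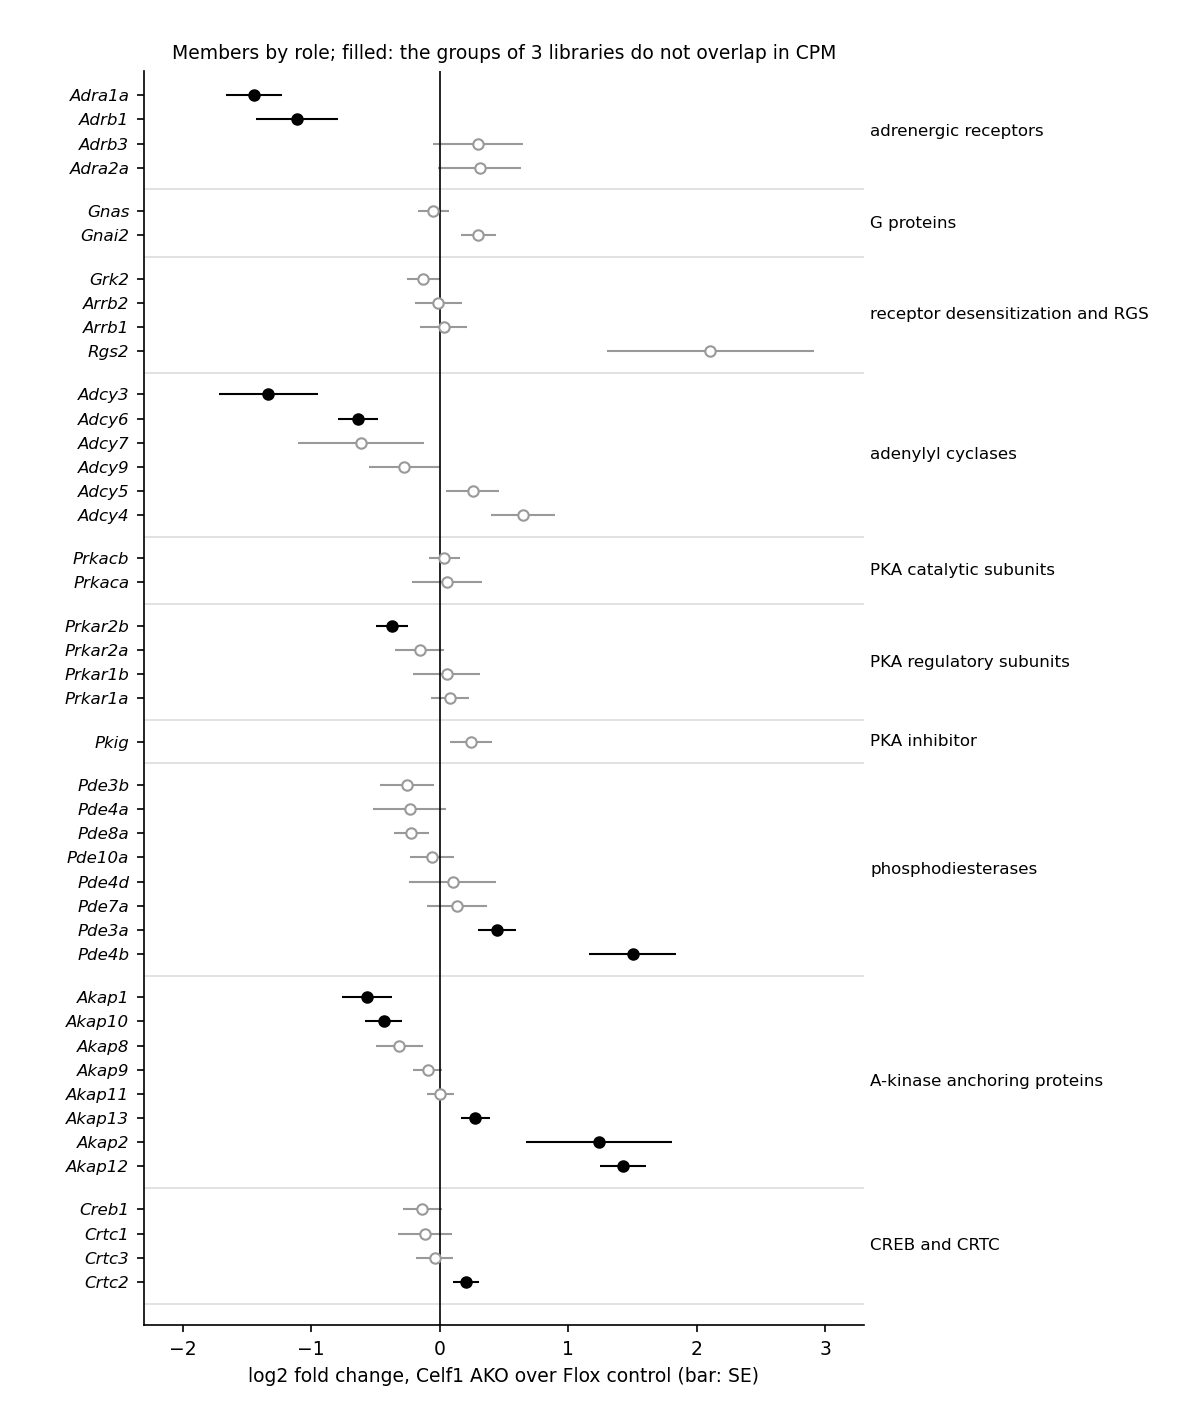
Log2 fold change of each of the 43 members, Celf1 AKO over Flox control, by edgeR, grouped by role, with bars of 1 SE. Filled points mark the 13 members whose 3 knockout and 3 control libraries did not overlap in CPM, and open points the other 30. The values run from -1.44 for Adra1a to 2.10 for Rgs2, and within the receptors, cyclases, phosphodiesterases and anchoring proteins they fall on both sides of 0.

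Among the receptors, the alpha 1A and beta 1 types were lower in all 3 knockout libraries, while the beta 3 type, the main beta receptor of mouse adipocytes, showed no separation. All positions are on GRCm38. Adra1a (chromosome 14, 66635251 to 66771168, plus strand) encodes the alpha 1A receptor. It was at 4.90, 5.63 and 7.76 CPM in the knockout and at 14.1, 18.3 and 17.4 CPM in the control libraries. All knockout libraries were low and the groups did not overlap, with Celf1 AKO replicate 3 nearest to the controls: the knockout mean was 36.7% of the control mean. The log2 fold change was -1.44 (SE 0.22), and edgeR gave an adjusted p of 0.215, against 0.0212 once Celf1 AKO replicate 3 was removed and a range of 8.35e-07 to 0.697 over 18 alternatives.

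Adrb1 (chromosome 19, 56722199 to 56733113, plus strand), the beta 1 receptor, coupled to the stimulatory G protein, was at 2.57, 1.47 and 2.55 CPM in the knockout and 3.94, 6.41 and 3.87 CPM in the control libraries. These are low levels, of 90 to 434 counts a library, and the groups did not overlap. Its log2 fold change was -1.11 (SE 0.32), and edgeR gave an adjusted p of 0.288, against 0.101 once Celf1 AKO replicate 3 was removed and a range of 0.0398 to 0.787 over 18 alternatives.

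Adrb3 (chromosome 8, 27225776 to 27250616, minus strand) was at 126, 138 and 107 CPM in the knockout libraries and at 46.9, 119 and 135 CPM in the controls. The groups overlapped and 1 library set the direction: Flox control replicate 1 was far below the other 5. The log2 fold change was 0.30 (SE 0.35, edgeR adjusted p = 0.744), and it was -0.04 without Flox control replicate 1. An antisense gene shares 24.85% of the exonic bases of Adrb3, and strand was not stated for the counting, so reads of the pair cannot be told apart. Adra2a (chromosome 19, 54044151 to 54048982, plus strand), the alpha 2A receptor that lowers cAMP, was barely expressed, at 0.983, 0.606 and 0.799 CPM in the knockout and 0.720, 0.590 and 0.612 CPM in the control libraries, which overlapped (log2 fold change 0.31, SE 0.32, edgeR adjusted p = 0.710).

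Per length, in FPKM, Adrb3 was at 43.8 ± 3.48 in the knockout and 36.7 ± 18.4 in the control libraries (mean ± SD, n = 3 each). Adra1a was at 1.42 ± 0.401 against 3.91 ± 0.727 FPKM, and Adrb1 at 0.885 ± 0.283 against 1.92 ± 0.660 FPKM. Adrb3 was therefore far above Adra1a and Adrb1 in both groups, which is not a ranking over all adrenergic receptors. The beige markers given above were lower in the same 3 libraries in which Adra1a and Adrb1 were lower, and their part in these values was not tested.

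**Figure D2:**
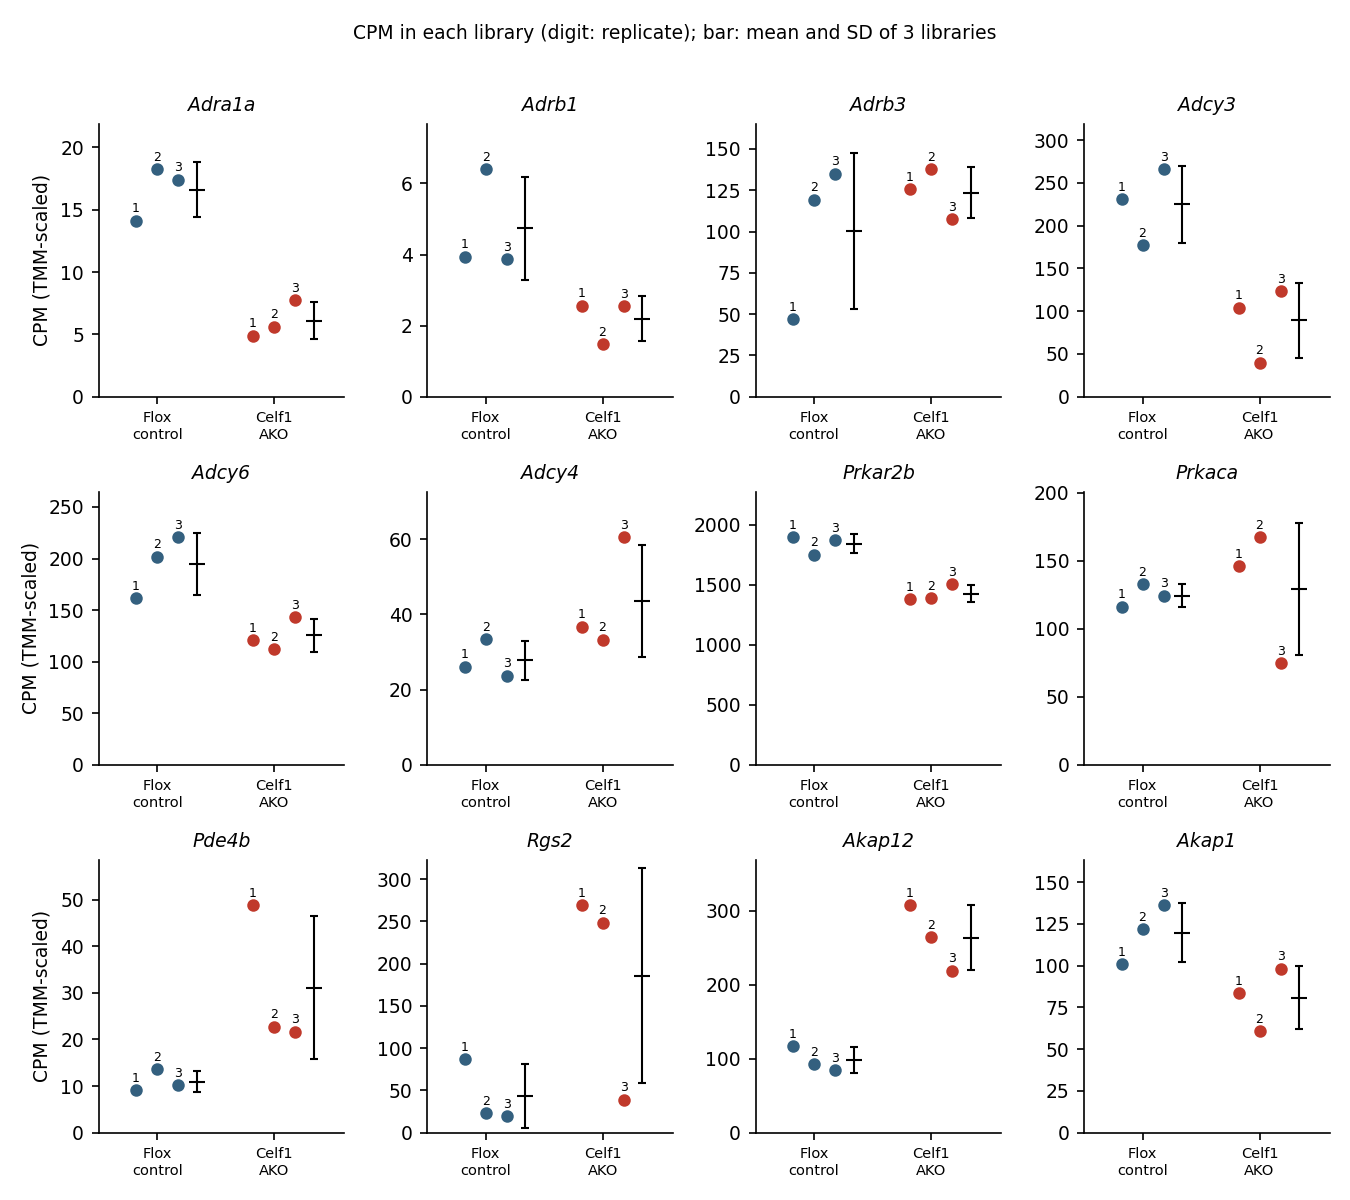
CPM of 12 members in each library, with blue points for Flox control and red for Celf1 AKO, the digit giving the replicate and the bar the mean and SD of 3 libraries. Every vertical axis starts at 0. Adra1a, Adrb1, Adcy3, Adcy6, Prkar2b and Akap1 are separate with the knockout lower, Akap12 and Pde4b with the knockout higher, and in Rgs2 and Prkaca Celf1 AKO replicate 3 lies away from the other knockout libraries.

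The letters bound by CREB were searched in the members' promoters, and that of Adrb1 is shown as an example that holds a half-site. The letters were the full cAMP response element TGACGTCA (CRE) and its half-sites TGACG and CGTCA, which the full element contains, on both strands, in RefSeq windows of GRCm38.p6 from 250 bases before to 50 after each start. The printed stretch is the 250 bases before the start, 5′ to 3′ along the gene, with half-sites in capitals (chr19:56721867-56722116, plus strand).
Adrb1: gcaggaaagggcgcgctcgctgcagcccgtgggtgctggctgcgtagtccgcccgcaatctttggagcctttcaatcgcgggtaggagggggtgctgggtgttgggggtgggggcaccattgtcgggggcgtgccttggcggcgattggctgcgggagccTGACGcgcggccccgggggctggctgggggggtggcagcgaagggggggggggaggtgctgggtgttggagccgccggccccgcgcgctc
It holds 1 half-site, beginning 90 bases before the start. Of all 32851 windows, 20.81% hold a half-site and 1.79% a full element, so a half-site alone is common.

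The 2 G protein genes did not separate. Gnai2 (chromosome 9, 107614125 to 107635367, minus strand), an inhibitory alpha subunit, was at 218, 202 and 215 CPM in the knockout and 163, 202 and 150.2 CPM in the control libraries. The lowest knockout library lay just under the highest control (log2 fold change 0.30, SE 0.14, edgeR adjusted p = 0.409). Gnas, whose locus makes the stimulatory alpha subunit and several other transcripts, was at 23.0 ± 1.84 against 23.8 ± 1.49 CPM (SD, n = 3 each). Opposite-strand genes share 8.83% and 13.13% of its exonic bases, which leaves its level uncertain.

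Of the genes that end the receptor signal, Grk2, the kinase of activated receptors, and the arrestins Arrb1 and Arrb2 had log2 fold changes of -0.13, 0.03 and -0.01, none with separate groups. Rgs2 (chromosome 1, 143999338 to 144004161, minus strand), which speeds the GTP hydrolysis of G proteins, Gq above all, and is itself known to be induced by cAMP, had the largest positive fold change of the 43. It was at 269, 248 and 39.1 CPM in the knockout and 86.7, 23.6 and 19.3 CPM in the control libraries. Celf1 AKO replicates 1 and 2 were high, but replicate 3 lay below Flox control replicate 1, so the groups overlapped. The log2 fold change was 2.10 (SE 0.81, edgeR adjusted p = 0.347), 3.11 without Flox control replicate 1, and 2.58 without Celf1 AKO replicate 3 (edgeR adjusted p = 0.0755, within a range of 0.0570 to 0.819 over 18 alternatives).

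The 250 bases before the Rgs2 start (chr1:144004150-144004399, minus strand; RefSeq, GRCm38.p6) are shown because Rgs2 is a cAMP-induced gene. Half-sites are in capitals.
Rgs2: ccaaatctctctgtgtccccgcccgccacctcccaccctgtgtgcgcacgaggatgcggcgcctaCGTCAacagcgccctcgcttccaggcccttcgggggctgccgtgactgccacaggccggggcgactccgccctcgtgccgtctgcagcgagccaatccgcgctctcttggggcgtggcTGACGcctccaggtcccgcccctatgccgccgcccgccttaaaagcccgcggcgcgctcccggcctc
They begin 185 and 67 bases before the start, the first as CGTCA and the other as TGACG. No full element is in the window.

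The 6 adenylyl cyclases split. Adcy3 and Adcy6 were lower in all 3 knockout libraries, Adcy4 was higher in mean, and the rest overlapped. Adcy3 (chromosome 12, 4133103 to 4213525, plus strand), a calcium-regulated cyclase with a shorter form described in cold-exposed brown fat, was at 104, 40.0 and 124 CPM in the knockout and 231, 177 and 266 CPM in the control libraries. Celf1 AKO replicate 2 was lowest of all, and the groups did not overlap. The log2 fold change was -1.33 (SE 0.38), and edgeR gave an adjusted p of 0.289, against 0.0795 once Celf1 AKO replicate 3 was removed and a range of 0.0219 to 0.792 over 18 alternatives. Gene counts do not separate transcript forms. The opposite-strand gene Cenpo shares 22.09% of the exonic bases of Adcy3, and its own mean level was 4.21 CPM.

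Adcy6 (chromosome 15, 98589973 to 98610076, minus strand), a calcium-inhibited cyclase, was at 121, 112 and 143 CPM in the knockout and 161, 202 and 221 CPM in the control libraries, without overlap. Its log2 fold change was -0.63 (SE 0.16), and edgeR gave an adjusted p of 0.252, against 0.0565 once Celf1 AKO replicate 3 was removed and a range of 0.0270 to 0.792 over 18 alternatives. An antisense gene shares 8.92% of the exonic bases of Adcy6, and the strand of the counting was not stated. Adcy4 (chromosome 14, 55769057 to 55784095, minus strand), of the class stimulated by beta-gamma subunits, was at 36.7, 33.2 and 60.6 CPM in the knockout and 26.1, 33.5 and 23.7 CPM in the control libraries. The groups overlapped by a small margin, and Celf1 AKO replicate 3 was far above the rest (log2 fold change 0.65, SE 0.25, edgeR adjusted p = 0.345; without that library 0.33). Adcy4 was higher alongside the endothelial markers, whose sums are given above, and their part in it was not tested. Adcy5, Adcy7 and Adcy9 had log2 fold changes of 0.26, -0.61 and -0.27, with overlap in each.

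In FPKM, which is per length, some cyclases held shares of the family sum that did not overlap between the groups. This is a description without a test, and the sum is over all cells of the tissue. Adcy3 held 23.4, 11.95 and 25.1% of the summed FPKM of the 6 cyclases in the knockout and 44.6, 30.4 and 40.9% in the control libraries, so it was the leading cyclase in 2 of 3 controls and in none of the knockout libraries. Adcy4 held 13.3, 15.9 and 19.7% in the knockout and 8.08, 9.24 and 5.84% in the control libraries, without overlap. Adcy5, which did not itself separate, held 33.4, 38.2 and 24.4% in the knockout and 15.6, 24.2 and 17.1% in the control libraries, without overlap but by a narrow gap. The summed FPKM of the 6 was 75.5 ± 17.7 in the knockout and 105 ± 17.0 in the control (SD, n = 3 each), with the highest knockout library above the lowest control. Shares within a pool are tied to each other, so a lower share of Adcy3 raises the others by arithmetic.

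**Figure D3:**
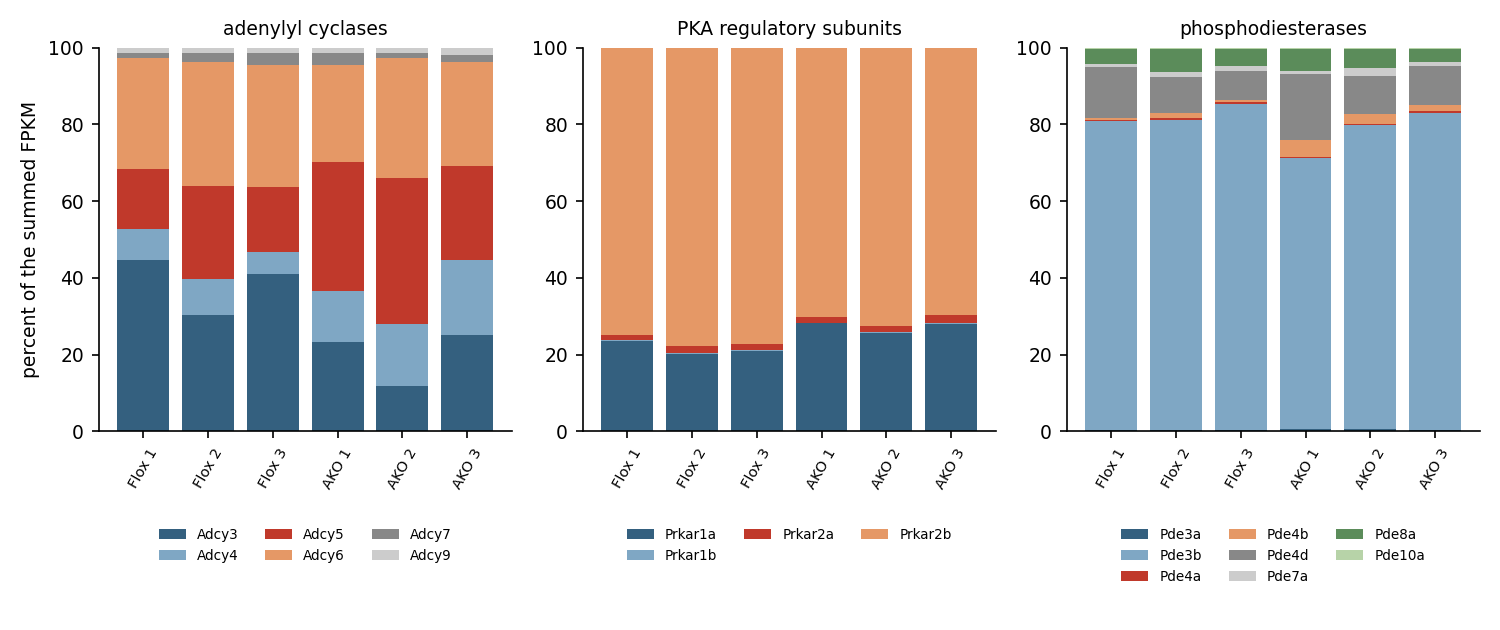
Share of each gene in the summed FPKM of its family, in percent, with 1 bar per library, for adenylyl cyclases, PKA regulatory subunits and phosphodiesterases. Adcy3 takes 30.4 to 44.6% of the cyclase bar in the controls and 11.95 to 25.1% in the knockout libraries. Prkar2b takes at least 69.7% of the regulatory subunit bar in every library, and Pde3b at least 70.6% of the phosphodiesterase bar.

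The catalytic subunits of PKA showed no separation, and of the regulatory subunits only Prkar2b was apart. Prkar2b (chromosome 12, 31958476 to 32061296, minus strand), the RII beta subunit that predominates in adipocytes, was among the most abundant members, at 1379, 1390.1 and 1504 CPM in the knockout and 1897, 1749.9 and 1873 CPM in the control libraries. The spread within each group was small and the groups did not overlap: the knockout mean was 77.4% of the control mean. Its log2 fold change was -0.37 (SE 0.12), and edgeR gave an adjusted p of 0.308, against 0.134 once Celf1 AKO replicate 3 was removed and a range of 0.0439 to 0.799 over 18 alternatives. Its share of the summed FPKM of the 4 regulatory subunits was 70.8 ± 1.47% against 76.7 ± 1.51% (mean ± SD, n = 3 each), with no overlap. Prkar1a, the widely expressed RI alpha subunit, made up most of the rest, at 27.3 ± 1.35% against 21.6 ± 1.76% of the summed FPKM, while its own log2 fold change was 0.08 (SE 0.15). Prkar2a and Prkar1b were at -0.16 and 0.06 on the same log2 scale.

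Prkaca (chromosome 8, 83972993 to 83996443, plus strand), the main catalytic subunit, was at 146, 167 and 74.6 CPM in the knockout and 116, 133 and 124 CPM in the control libraries. Celf1 AKO replicates 1 and 2 were the highest of the 6 and replicate 3 the lowest, so the log2 fold change of 0.06 (SE 0.27, edgeR adjusted p = 0.950) had no settled direction. Without Celf1 AKO replicate 3 it was 0.33, and without Celf1 AKO replicate 2 it was -0.18. Prkacb, the second catalytic subunit, was at 65.9 ± 8.44 against 64.3 ± 2.50 CPM. The summed FPKM of the 4 regulatory subunits was 7.25, 6.37 and 14.0 times that of the 2 catalytic subunits in the knockout and 11.5, 9.17 and 10.3 times in the control libraries. The knockout libraries lay on both sides of the controls in this ratio. Pkig (chromosome 2, 163658386 to 163726158, plus strand), the gamma inhibitor of free catalytic subunits, was at 18.3, 22.6 and 23.7 CPM in the knockout and 18.3, 20.8 and 15.5 CPM in the control libraries, with overlap (log2 fold change 0.24, SE 0.16, edgeR adjusted p = 0.559).

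Of the 30 members with a promoter window, Prkar1a was the 1 that held the full CRE, in 2 of its overlapping windows, and the stretch before one of its starts is shown for that reason (chr11:109650699-109650948, plus strand; RefSeq, GRCm38.p6). The capitals mark the element and a half-site.
Prkar1a: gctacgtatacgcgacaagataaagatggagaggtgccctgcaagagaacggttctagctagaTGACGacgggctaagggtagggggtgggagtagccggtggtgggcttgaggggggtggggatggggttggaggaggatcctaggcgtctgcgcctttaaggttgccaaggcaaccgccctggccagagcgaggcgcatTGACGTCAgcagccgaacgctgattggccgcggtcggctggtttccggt
The full element begins 49 bases before this start and the separate half-site 187 bases before it. The gene with this element was at 572 ± 57.8 CPM in the knockout and 541 ± 74.4 CPM in the control libraries.

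Of the 8 phosphodiesterases, Pde4b and Pde3a were higher in all 3 knockout libraries and none was lower without overlap. Pde4b (chromosome 4, 102087543 to 102607259, plus strand), a cAMP-specific enzyme that cAMP itself is known to induce, was at 48.8, 22.8 and 21.7 CPM in the knockout and 9.12, 13.6 and 10.2 CPM in the control libraries. Celf1 AKO replicate 1 was the highest, and every knockout library exceeded every control. The log2 fold change was 1.502 (SE 0.34), and edgeR gave an adjusted p of 0.238, against 0.0508 once Celf1 AKO replicate 3 was removed and a range of 0.00155 to 0.782 over 18 alternatives. Pde3a (chromosome 6, 141249269 to 141507448, plus strand), known from heart, smooth muscle and platelets, was at 16.8, 14.8 and 16.3 CPM in the knockout and 11.9, 10.2 and 12.9 CPM in the control libraries, with narrow spread and no overlap (log2 fold change 0.45, SE 0.15, edgeR adjusted p = 0.306). The endothelial sums given above were higher in the same 3 libraries, the smooth muscle and pericyte markers overlapped at 567 to 654 against 402 to 653 CPM, and the part of either in these values was not tested. An antisense gene, at a mean of 0.370 CPM, shares 5.82% of the exonic bases of Pde3a.

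Pde3b (chromosome 7, 114415281 to 114539251, plus strand), the enzyme through which insulin restrains lipolysis in adipocytes, was by far the leading phosphodiesterase per length, with 77.4 ± 6.18% of the summed FPKM of the 8 in the knockout and 82.0 ± 2.45% in the control. Its levels were 1183, 1143 and 1689 CPM in the knockout and 1815, 1257 and 1707 CPM in the control libraries, with overlap (log2 fold change -0.25, SE 0.21, edgeR adjusted p = 0.641). Pde4b, in contrast, was only 2.83 ± 1.46% of that pool in the knockout and 0.908 ± 0.376% in the control. Pde4d was next after Pde3b, at 12.4 ± 3.98% and 10.03 ± 2.90%. The log2 fold changes of Pde4a, Pde4d, Pde7a, Pde8a and Pde10a ran from -0.23 to 0.13, and each overlapped.

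Of the 4 windows of Pde4b, 1 holds a half-site, and its 250 bases before the start are shown because Pde4b was higher in all 3 knockout libraries, with the half-site in capitals (chr4:102421305-102421554, plus strand; RefSeq, GRCm38.p6).
Pde4b: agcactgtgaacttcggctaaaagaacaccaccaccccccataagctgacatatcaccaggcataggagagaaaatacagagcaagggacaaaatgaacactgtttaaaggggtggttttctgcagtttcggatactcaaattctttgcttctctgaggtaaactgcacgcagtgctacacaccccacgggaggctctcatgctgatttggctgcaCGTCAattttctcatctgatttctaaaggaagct
It begins 34 bases before the start. The counts do not tell which start was used.

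The anchoring proteins held the smallest p of all 43 members. Akap12 (chromosome 10, 4266380 to 4359470, plus strand), known as gravin, a scaffold for PKA and protein kinase C, was at 308, 264 and 219 CPM in the knockout and 117, 92.6 and 84.6 CPM in the control libraries. The lowest knockout library was well above the highest control, and the knockout mean was 268% of the control mean. The log2 fold change was 1.42 (SE 0.18), and edgeR gave an adjusted p of 0.132, against 0.0202 once Celf1 AKO replicate 3 was removed and a range of 3.90e-09 to 0.697 over 18 alternatives. Akap12 is expressed in vascular and mesenchymal cells as well as in fat. The endothelial and Schwann cell marker sums given above were higher in the same 3 libraries, while the smooth muscle and pericyte sums overlapped. Preadipocyte and fibroblast markers overlapped as well, at 4255 to 7053 against 4896 to 6507 CPM, with 1 of 8 positive and 7 negative. The part of any of these lists in the Akap12 values was not tested.

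Akap1 (chromosome 11, 88830792 to 88864586, minus strand), which holds PKA at the outer mitochondrial membrane, was at 83.4, 60.9 and 98.2 CPM in the knockout and 101, 122 and 136 CPM in the control libraries. The groups were separate by a narrow gap (log2 fold change -0.57, SE 0.19, edgeR adjusted p = 0.317). Akap10 (chromosome 11, 61871307 to 61930252, minus strand), which binds both RI and RII subunits, was at 14.9, 16.2 and 15.4 CPM in the knockout and 20.8, 18.1 and 24.1 CPM in the control libraries, also without overlap (log2 fold change -0.44, SE 0.14, edgeR adjusted p = 0.307). Akap13 (chromosome 7, 75455534 to 75754609, plus strand), a large scaffold of PKA, was higher by a small amount in all 3 knockout libraries, at 188, 160.5 and 179.6 against 152, 138 and 146 CPM (log2 fold change 0.28, SE 0.11, edgeR adjusted p = 0.360).

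Akap2 (chromosome 4, 57717657 to 57896984, plus strand) was barely detected, with 12 to 14 counts in the knockout and 3 to 10 in the control libraries. Its groups did not overlap, at 0.237, 0.196 and 0.215 against 0.172, 0.0590 and 0.0459 CPM, but 84.42% of its exonic bases belong also to the same-strand gene Pakap, so its value is uncertain (log2 fold change 1.24, SE 0.57, edgeR adjusted p = 0.410). Without Flox control replicate 1 its log2 fold change was 1.996. Akap8 of the nucleus, Akap9 of the centrosome and Golgi, and Akap11 had log2 fold changes of -0.32, -0.09 and 0.01, with overlap.

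At the end of the pathway, Creb1 and its co-activators were close to level between the groups. Crtc2 (chromosome 3, 90254163 to 90264125, plus strand), a co-activator that enters the nucleus when its inhibiting kinases are silenced by PKA, was at 49.9, 51.4 and 46.3 CPM in the knockout and 45.1, 40.9 and 42.4 CPM in the control libraries. The gap between the groups was small but there was no overlap (log2 fold change 0.20, SE 0.10, edgeR adjusted p = 0.442). Creb1, Crtc1 and Crtc3 had log2 fold changes of -0.13, -0.11 and -0.04, each with overlapping groups.

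Under other tests the calls among the members varied with the method. DESeq2 gave 42 members an adjusted p and called 7 of them, on each side a larger share than over all genes. The list was chosen with earlier results of these data known. DESeq2, which called 2.12% of the genes it tested higher and 0.926% lower, called Akap12 (adjusted p = 3.90e-09) and Pde4b (0.00155) higher. On the lower side it called Adra1a (8.35e-07), Adcy3 (0.0219), Adcy6 (0.0270), Adrb1 (0.0398) and Prkar2b (0.0439). The range over 18 alternatives is given with each of these genes above, and its upper end was 0.697 or more in all 7. Without Celf1 AKO replicate 3, edgeR called Akap12 higher and Adra1a lower, where 1.43% and 1.76% of tested genes were called. With any other single library left out, no member was called. For each of the 7, leaving out Celf1 AKO replicate 3 gave the lowest edgeR adjusted p of any single omission. That library was singled out for lying nearer the controls than its own group, so its removal is not a neutral check.

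Promoter windows were found for 30 of the 43 members. A half-site was in at least 1 window of 16 of these 30 genes (53.33%), beside 33.44% of the 11566 tested genes with a window, and members have more windows each, 60 for 30 genes against 14739 for 11566. Counted by window, 33.33% of the members' and 28.94% of the tested genes' windows held one. The promoters printed above all hold a half-site. Among the members with separate groups, Adcy3, Akap1, Akap10 and Akap13 had windows but no half-site in any of them. The AP-1 letters TGANTCA were in 5 of 60 windows (8.33%) beside 5.56%. Not matched were Adcy6, Adra1a, Adrb3, Akap2, Akap12, Arrb1, Arrb2, Crtc2, Gnai2, Grk2, Pde3a, Pde3b and Pde7a.

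Celf1 binds GU-rich RNA, so the longest annotated 3′ untranslated region of each member (GENCODE M21, GRCm38) was searched on the RNA strand. The 11 letters TGTTTGTTTGT were in none of the 43, beside 4.19% of 13981 tested genes. The 7 letters TGTTTGT, part of them, were in 16 of 43 (37.21%) beside 28.97%, with a median region length of 1913 bases in members and 1166 in all. Per kilobase this came to 0.251 matches in members and 0.318 in tested genes. The sites of members that were separate with the knockout lower are shown with 9 bases on each side and the 7 letters in capitals: Adra1a (chr14:66729235-66729259, plus strand), Adcy6 (chr15:98591320-98591344, minus strand) and the first of 2 in Prkar2b (chr12:31960305-31960329, minus strand).
Adra1a: aagataaggTGTTTGTctgtggcac
Adcy6: ggtcctgtgTGTTTGTgtaattgtg
Prkar2b: ctgagaatgTGTTTGTggagatgcc
Pde3a, Akap13 and Akap2, separate with the knockout higher, had 3, 2 and 1 matches. The first match of Pde3a is shown, at chr6:141500251-141500275, plus strand.
Pde3a: gtgttatttTGTTTGTtttctacac
Separate members with these letters lay on both sides of the controls, and the separate members Adcy3, Adrb1, Akap1, Akap10, Akap12, Crtc2 and Pde4b had none. A match is a run of letters and not a measured binding site.

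Beyond the members, 80 other genes of the pathway, of 88 listed, were tested. None was called by edgeR, 54 had positive and 26 negative fold changes, and the median was 0.15 beside -0.02 for all tested genes. At an unadjusted p under 0.05, 14 were higher and 4 lower, beside 6.75% and 6.17% of all tested genes. The groups did not overlap in 9 with the knockout higher and 6 with it lower, near the 7.81% and 9.51% of all tested genes. Sphkap, an anchoring protein for RI subunits, was at 0.582, 0.426 and 0.400 CPM in the knockout and 0.0686, 0.0590 and 0.0918 CPM in the control libraries, which rest on 26 to 32 and on 4 to 6 counts (log2 fold change 2.65, SE 0.43, edgeR adjusted p = 0.215). Rapgef4, the cAMP-gated exchange factor EPAC2, was at 4.39, 5.93 and 5.72 against 3.05, 2.57 and 2.31 CPM without overlap (log2 fold change 1.02, SE 0.23, edgeR adjusted p = 0.233). Prkx, a kinase related to the PKA catalytic subunit, was at 53.0, 47.5 and 41.7 against 37.8, 34.7 and 35.4 CPM, also without overlap. Pkia, the alpha PKA inhibitor, was at 11.3, 8.76 and 29.5 against 6.33, 7.73 and 6.30 CPM, highest in Celf1 AKO replicate 3. Gnao1, the alpha subunit of Go, was lower in all 3 knockout libraries, at 3.39, 3.45 and 3.61 against 5.11, 6.08 and 4.53 CPM. Sik3, a kinase that inhibits CRTC co-activators, was at 87.7, 88.1 and 79.5 against 78.0, 62.8 and 55.4 CPM.

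Of 11 tested genes that cAMP is known to induce, 10 had positive fold changes, with a median of 0.81, and Dio2 was the exception. Of all 16366 tested genes, 7774 were positive, with a median of -0.02. This list was chosen with earlier results of these data known. Dio2, the deiodinase that activates thyroid hormone in brown fat and a beige marker, was at 32.9, 4.94 and 19.9 CPM in the knockout and 69.1, 144 and 155 CPM in the control libraries, without overlap (log2 fold change -2.67, SE 0.63, edgeR adjusted p = 0.251). Per1, a clock gene, was at 294, 308 and 179 against 166, 148 and 131 CPM, higher in all 3 knockout libraries (log2 fold change 0.81, SE 0.22, edgeR adjusted p = 0.260).

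Of the 11 genes, 2 had separate groups with the knockout higher, Per1 and Nr4a2, and 1 with it lower, Dio2. Over all tested genes the shares were 7.81% and 9.51%. In the immediate-early genes Junb, Dusp1 and Nr4a1 the groups overlapped. Junb, an AP-1 subunit, was at 344, 228 and 28.2 CPM in the knockout and 54.8, 25.9 and 19.9 CPM in the control libraries. Dusp1, a MAP kinase phosphatase, was at 476, 373 and 153 against 173, 114 and 98.2 CPM, and Nr4a1, an orphan nuclear receptor, at 249.97, 185 and 87.7 against 107, 64.5 and 74.1 CPM. In each, Celf1 AKO replicates 1 and 2 were the highest of the 6 libraries, replicate 3 was below Flox control replicate 1, and Flox control replicate 1 was the highest control. Sik1, a cAMP-induced kinase of the CRTC co-activators, was at 401, 441 and 196 against 216, 88.7 and 71.6 CPM. The points given for Junb, Dusp1 and Nr4a1 also held for Sik1 and for the member Rgs2, while the full order of the libraries varied among these genes. Summed over the 11 genes, the level was 2476, 1803 and 998 CPM in the knockout and 1326, 767 and 816 CPM in the control libraries, which overlapped. The 6 genes of lipolysis and its control on the list, Lipe and Plin1 among them, had a median of -0.14 and no separate group. The fold change was positive in 2 and negative in 4. At an unadjusted edgeR p under 0.05, 1 of them, G0s2, was lower and 0 were higher, beside 6.17% and 6.75% of all tested genes.

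**Figure D4:**
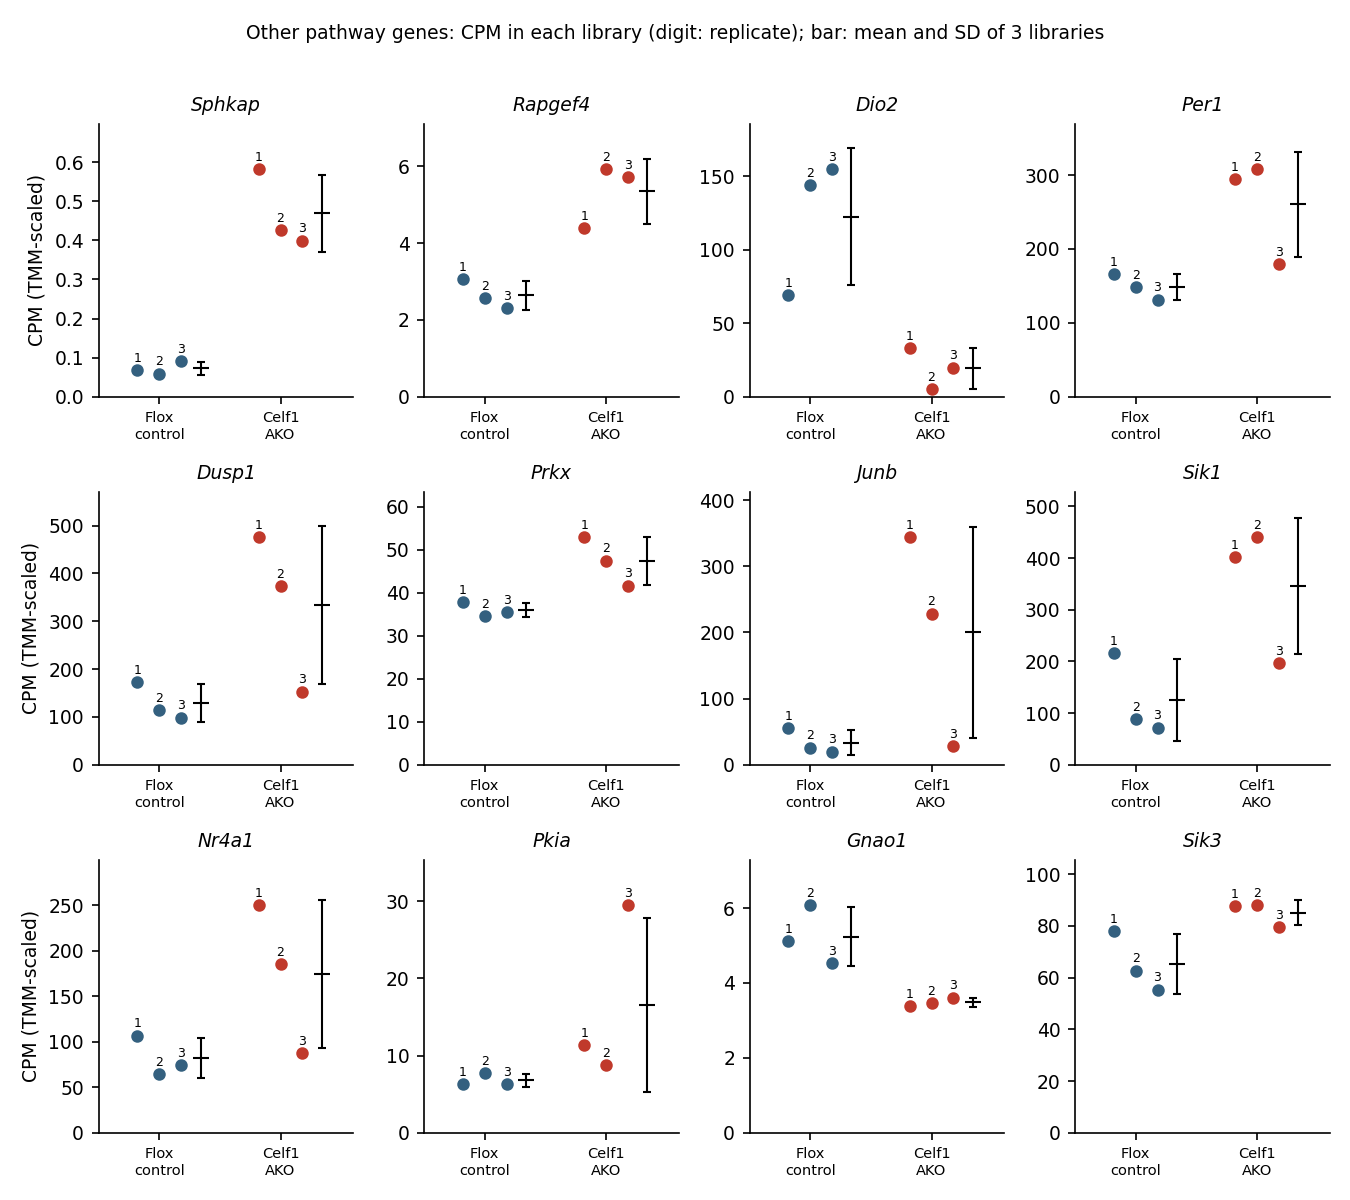
CPM of 12 further pathway genes in each library, with blue points for Flox control and red for Celf1 AKO, the digit giving the replicate and the bar the mean and SD of 3 libraries. Every vertical axis starts at 0. Sphkap, Rapgef4, Per1, Prkx, Pkia and Sik3 are separate with the knockout higher, Dio2 and Gnao1 with it lower, and in Junb, Dusp1, Sik1 and Nr4a1 Celf1 AKO replicate 3 lies among the controls.

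Of these other pathway genes, edgeR called 6 higher once Celf1 AKO replicate 3 was removed (Dusp1, Fos, Junb, Nr4a1, Per1 and Sphkap) and 0 lower, beside 1.43% and 1.76% of all tested genes. DESeq2 on all 6 libraries called 5 higher (Dusp1, Per1, Rapgef4, Sik1 and Sphkap) and Dio2 lower, beside 2.12% and 0.926% of the genes it tested. Neutrophil markers were higher in the knockout in 6 of 6 by the fitted fold change, and in 2 of these the groups did not overlap. Their sums overlapped, at 16.5, 26.2 and 114 CPM against 7.86, 16.7 and 3.41 CPM, with Ngp at 0 in Flox control replicates 2 and 3. The 1 skeletal muscle marker in the table, of 5 listed, was Acta1, which reached 1039 CPM in Celf1 AKO replicate 3 against 23.1 to 75.2 CPM elsewhere. The part of these in the values of that library was not tested.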

How the data were processed

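RNA from inguinal fat of 3 Celf1 AKO and 3 Flox control libraries was sequenced after Trizol extraction and mRNA isolation, per the labels' protocols. Tools and builds listed in the submitters' processing notes are HISAT2, RSEM 1.3.1, GRCm38 and mm10, with no role stated. The strand setting and the annotation release were not given in the sources used here. The authors deposited a table of whole-number counts by Ensembl gene and a table of FPKM, with 1 column for each library per the file headers. The implied FPKM lengths were within 10% of the longest GENCODE M21 transcript in 37 of the 42 members compared. Names and positions came from GENCODE M21.

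Counts were tested with edgeR 4.0.16 (R 4.3.3): quasi-likelihood test, robust estimation, TMM factors, default filter (16366 genes kept, 261 removed), genotype as the only term, and Benjamini-Hochberg adjustment over all tested genes, called at 0.05. Alternatives used DESeq2 1.42.0 and limma 3.58.1, other scalings and filters, FPKM with pseudocounts of 1 and 0.1, a replicate block, and each library left out. Counts of 54835348 to 64979443 per library set the precision. SE is the fold change over the root of F. CPM errors are SDs over 3 libraries. The script was tested on simulated counts.

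The members, the other pathway genes and the marker lists were chosen with earlier results of these data known, so none gives independent support. Genes given in every library were the receptors, members at an unadjusted p under 0.05 or without overlap, the member of highest mean FPKM in each role, and, of the other pathway genes, the 12 of smallest p. A further gene that the rule named by itself is not reported here. Other members are given by range. Fos, Nr4a2 and G0s2, outside that rule, are named in counts.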

Additional observations from a re-analysis of the deposited data

How the results depend on the processing

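Over all genes, edgeR called 2 higher and 0 lower. The count of genes called higher was 0 with library size only, 0 with limma-voom, 0 with limma on log2(FPKM + 1) or log2(FPKM + 0.1), 1 without the FPKM minimum, 6 with voom quality weights and 345 with DESeq2, and leaving out 1 library gave 0 to 237, the latter without Celf1 AKO replicate 3. The count called lower was 4 with quality weights and 151 with DESeq2, and 0 to 290 with 1 library left out, again the latter without Celf1 AKO replicate 3. Members called higher were 2 by DESeq2, 1 with quality weights and 0 to 1 with a library left out, and members called lower 5, 1 and 0 to 1. Other pathway genes called were 5 higher and 1 lower by DESeq2, and 0 to 6 higher with a library left out. Celf1 was past the threshold by DESeq2 (log2 fold change -1.19), with quality weights (-1.25) and without Celf1 AKO replicate 3, within a range of -1.32 to -1.12 over the libraries left out. With the replicate block 9 genes were called higher and 3 lower, among them 1 member (Akap12) and Celf1 (log2 fold change -1.21). The numbers pair the libraries only by label: same-numbered libraries had correlations of deviations of 0.0818, -0.0496 and 0.213, and not every library correlated best with its own number.

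Of 371 values of the 21 members given in full, 351 kept direction and side of the threshold, 12 passed it and 8 turned direction, in 2 members. Adrb3 ran from -0.0431 (without Flox control replicate 1) to 0.57 with a library left out. Prkaca turned to -0.0226 with limma-voom, -0.021 with the replicate block, -0.0338 with limma on log2(FPKM + 1) with or without the minimum and -0.0355 on log2(FPKM + 0.1), and ran from -0.18 to 0.33 with a library left out. The knockout minus control difference in the ratio of regulatory to catalytic FPKM was -1.11 and ran from -3.52 to 0.313. The cause was not tested in any of these. Members without overlap numbered 6 to 8 higher and 6 to 7 lower under other scalings and in FPKM. The FPKM overlap and the use of annotated lengths for the shares were chosen after seeing the data. With 3 libraries a group an exact permutation test cannot go below 0.1, genes under about 1 CPM rest on few counts, and RNA levels in whole tissue give neither receptor protein, cAMP nor kinase activity.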
